A study of Homo sapiens with 24 samples.

Results

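The members of the vascular endothelial growth factor (VEGF) and angiopoietin families described here are 9 genes of the 26475 in the count tables, chosen by gene symbol and read in all 24 libraries. They are the VEGF ligands VEGFA, VEGFB, VEGFC and PGF, the angiopoietins ANGPT1 and ANGPT2, the angiopoietin-like factor ANGPTL2, and the VEGF receptors FLT1 and KDR. The libraries are mRNA-seq of 2 cultured clear cell renal cell carcinoma (ccRCC) lines, 786-M1A and OS-LM1, which are metastatic derivatives of the VHL-mutant lines 786-O and OS-RC2. Each line was sequenced with 3 constructs: sgNTC18, a non-targeting guide RNA, and shPAX8-1 and shPAX8-2, hairpins against the renal lineage factor PAX8, with 4 replicates of each. The comparison asks how PAX8 depletion changes expression in ccRCC cells. The sgNTC18 libraries carry a guide and not a hairpin, so the kind of construct and the loss of PAX8 cannot be told apart here. Both hairpins of a line are compared with the same 4 sgNTC18 libraries, so their 2 comparisons are not independent.

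VEGFA is the main driver of blood vessel growth and signals through its receptor KDR, while FLT1 binds VEGFA, VEGFB and PGF and often acts as a decoy. VEGFC acts mainly on lymphatic vessels. ANGPT1 stabilizes vessels through the receptor TEK, and ANGPT2 antagonizes it in most settings. In ccRCC the loss of VHL leaves hypoxia-inducible factors (HIFs) active, and VEGFA is one of their best known target genes, so these tumours are richly vascularized and are treated with drugs against the VEGF pathway. VEGFA is made by the tumour cells, while its receptors are mainly endothelial.

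The guide strands of both hairpins are shown because several ligands responded differently to them. Capitals mark the seed, guide bases 2 to 8, and the bases of the PAX8 mRNA that pair with it.
shPAX8-1 guide: tGTGAGTCaatgcttagtcggc
shPAX8-1 site in PAX8: gccgactaagcattGACTCACa
shPAX8-2 guide: tAGAGTTGtgttaataatggag
shPAX8-2 site in PAX8: ctccattattaacaCAACTCTa
Each guide matched PAX8 at 1 place over all 22 bases. The shPAX8-1 site lies at chr2:113241690-113241711 on the minus strand of hg38, in the coding sequence of exon 7 of 12. The shPAX8-2 site lies at chr2:113218122-113218143, in the 3′ UTR in exon 12. The guides therefore share neither seed nor target site.

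Library totals ran from 11634419 to 52059375 counts. PAX8 was lower in every shPAX8 library than in every sgNTC18 library of its line. In 786-M1A its level fell from a mean of 341 ± 44.7 CPM (read counts scaled to a common library size; SD, n = 4) to 18.7 ± 4.32 with shPAX8-1 and 42.4 ± 2.37 with shPAX8-2. In OS-LM1 it fell from 260 ± 14.5 to 78.2 ± 13.1 and 79.2 ± 13.7 CPM. The fall was smaller in OS-LM1, by 1.87 on the log2 scale (SE 0.17, adjusted p = 7.5e-10). Replicates 1 and 2 of 786-M1A shPAX8-1 stood apart from replicates 3 and 4, with PAX8 at 22.9 and 22.0 against 15.2 and 14.8 CPM, and results for VEGFA, VEGFB and PGF that changed their call with this split are given for each pair. In 786-M1A shPAX8-2, replicates 1 and 2 also lay above 3 and 4 for VEGFA, VEGFB, PGF and EPAS1, but not for PAX8. EPAS1 stood there at 588 and 632 against 447 and 450 CPM. No fit was split by these pairs in shPAX8-2. All levels in CPM are scaled by the trimmed mean of M values, and all p-values are from edgeR's quasi-likelihood test, adjusted over all genes tested and called under 0.05. Whether the replicates were separate cultures is not given in the sources used here, so the p-values measure the spread between these libraries.

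The libraries expressed the markers of the labelled cells. VIM led the renal and ccRCC line markers, at a mean of 7640 TPM (transcript abundance, a level per transcript length) in 786-M1A sgNTC18 and 8370 in OS-LM1 sgNTC18, with KRT18 at 279 and 262. CA9, a ccRCC antigen, was at 0 in all 4 sgNTC18 libraries of 786-M1A. Among 14 endothelial markers, SOX17 was at 0 in every group, and CDH5, the endothelial cadherin, did not pass a group mean of 0.0125 TPM. The summed endothelial markers of 786-M1A had a median of 29.7 TPM in sgNTC18, 11.9 with shPAX8-1 and 21.5 with shPAX8-2, and EGFL7 alone gave 27.9, 8.82 and 17.6 TPM of it. In OS-LM1 the sums ran from 1.33 to 3.87 TPM. CD3E and MS4A1 were at 0 in every library, PTPRC stayed at a group mean of 0.227 TPM or below, and CD68, which many tumour lines express, gave nearly the whole leukocyte sum.

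The order of levels, compared per length in TPM, was the same at the top in both lines. In 786-M1A sgNTC18, VEGFA stood at 369 ± 39.1 TPM, VEGFB at 83.8 ± 10.6, VEGFC at 29.4 ± 1.23, PGF at 4.92 ± 0.959 and ANGPTL2 at 1.24 ± 0.247, and no 2 neighbours in this order overlapped. FLT1, ANGPT2 and KDR followed between 0.180 and 0.278 TPM and overlapped each neighbour among them, and ANGPT1 was at 0. In OS-LM1 sgNTC18 the order was again VEGFA at 164 ± 11.6 TPM, VEGFB at 32.4 ± 2.83, VEGFC at 25.9 ± 2.14 and PGF at 0.800 ± 0.0779, with no overlap between neighbours. The other 5 genes lay at 0.183 TPM or below there, and neighbours in the order overlapped.

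**Figure D1:**
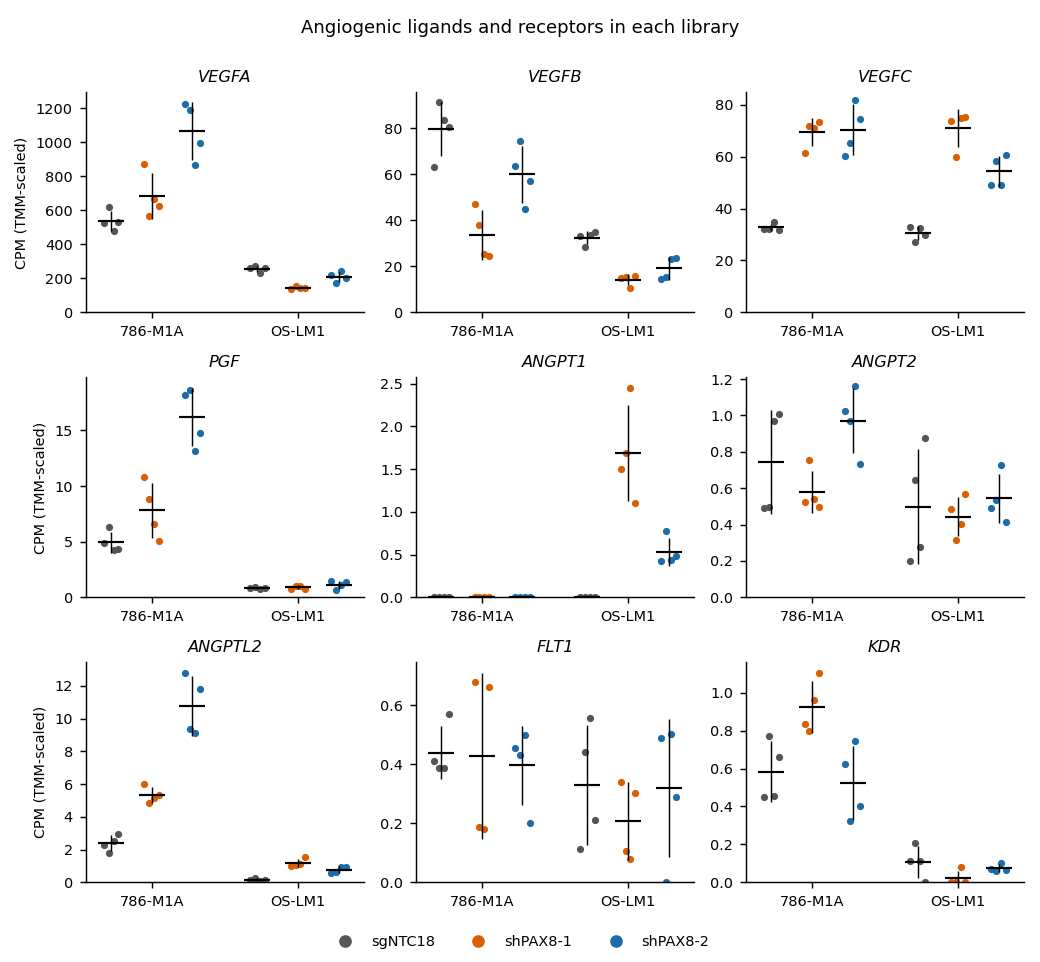
Level of each of the 9 genes in every library, in CPM on a linear axis that starts at 0 (points, libraries; horizontal bars, means of 4; vertical bars, SD, cut at 0). The VEGFA means of both hairpins lie above sgNTC18 in 786-M1A and below it in OS-LM1, VEGFC was higher with both hairpins in both lines, and ANGPT1 was above 0 only in the OS-LM1 hairpin libraries.

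VEGFA (chromosome 6, 43770211 to 43786487, GRCh38) moved in opposite directions in the 2 lines. In 786-M1A its sgNTC18 libraries held 523, 619, 479 and 533 CPM, the shPAX8-1 libraries 874, 567, 664 and 627, and the shPAX8-2 libraries 1223, 1191, 864 and 993. All shPAX8-2 libraries were above all sgNTC18 libraries, while 1 of the 4 shPAX8-1 libraries lay inside the sgNTC18 range. The rise was 2.01-fold with shPAX8-2 (log2 fold change 1.01, SE 0.14, adjusted p = 2.1e-05) and 1.29-fold with shPAX8-1 (0.36, SE 0.14, adjusted p = 0.031). The smaller rise passed the threshold narrowly. It was 0.22 without shPAX8-1 replicate 1 (adjusted p = 0.13), and 0.34, 0.30 and 0.36 without sgNTC18 replicate 1, 3 or 4 (adjusted p = 0.068, 0.11 and 0.064). With only shPAX8-1 replicates 1 and 2 it was 0.41 (adjusted p = 0.029), and with only replicates 3 and 4 it was 0.28 (adjusted p = 0.067).

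In OS-LM1, VEGFA stood at 258, 270, 229 and 258 CPM in sgNTC18, at 138, 155, 141 and 142 with shPAX8-1, and at 219, 170, 245 and 201 with shPAX8-2. Every shPAX8-1 library was below every other OS-LM1 library, while 1 of the 4 shPAX8-2 libraries reached into the sgNTC18 range. The level with shPAX8-1 was 0.557 of the control (log2 fold change -0.85, SE 0.099, adjusted p = 2.9e-07) and that with shPAX8-2 was 0.823 of it (-0.28, SE 0.099, adjusted p = 0.016). The shPAX8-2 change was -0.20 without its replicate 2 (adjusted p = 0.064), -0.25 without its replicate 4 (adjusted p = 0.051) and -0.06 once a trend with GC content was removed (adjusted p = 0.46). Averaged over both hairpins, the log2 fold change in OS-LM1 less that in 786-M1A was -1.22 (SE 0.16, adjusted p = 2.4e-07). The hairpins also differed from each other in both lines, with VEGFA lower under shPAX8-1 than under shPAX8-2 by a log2 change of -0.64 in 786-M1A (SE 0.14, adjusted p = 0.0022) and -0.56 in OS-LM1 (SE 0.099, adjusted p = 0.00027). That gap did not itself differ detectably between the lines (0.11, SE 0.18, adjusted p = 0.69).

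VEGFB (chromosome 11, 64234584 to 64239264), a ligand of FLT1 linked to fatty acid uptake, was lower with the hairpins. In 786-M1A it stood at 63.3, 91.3, 83.8 and 80.6 CPM in sgNTC18, at 47.3, 37.9, 25.5 and 24.6 with shPAX8-1, and at 63.7, 74.5, 44.8 and 57.1 with shPAX8-2. The shPAX8-1 libraries lay below all controls, with replicates 3 and 4 lowest, and the shPAX8-2 libraries overlapped the controls. VEGFB fell by 1.21 on the log2 scale with shPAX8-1 (SE 0.21, adjusted p = 8.4e-05), while with shPAX8-2 the log2 fold change of -0.39 (SE 0.20) gave an adjusted p of 0.11. In OS-LM1 it stood at 33.2, 28.3, 33.8 and 34.7 CPM in sgNTC18, at 14.9, 15.3, 10.7 and 15.7 with shPAX8-1, and at 14.4, 15.3, 23.4 and 23.6 with shPAX8-2. Neither hairpin overlapped the controls there. VEGFB fell by 1.23 with shPAX8-1 (SE 0.15, adjusted p = 6.3e-07) and by 0.74 with shPAX8-2 (SE 0.15, adjusted p = 0.00021). No difference in the change between the lines was detected (-0.15, SE 0.23, adjusted p = 0.60). The gap between the hairpins differed between the lines by 0.37 (SE 0.28, adjusted p = 0.34), by 0.04 with only replicates 1 and 2 of 786-M1A shPAX8-1 (adjusted p = 0.96) and by 0.82 with only replicates 3 and 4 (adjusted p = 0.012).

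VEGFC (chromosome 4, 176683538 to 176792922), the lymphangiogenic ligand, rose in all 4 comparisons. In 786-M1A its levels were 32.2, 32.2, 34.7 and 31.8 CPM in sgNTC18, 61.6, 72.0, 71.2 and 73.5 with shPAX8-1, and 60.3, 65.3, 82.1 and 74.4 with shPAX8-2. In OS-LM1 they were 33.0, 27.2, 32.4 and 29.8 CPM in sgNTC18, 73.8, 60.0, 74.9 and 75.5 with shPAX8-1, and 49.3, 58.3, 49.1 and 60.9 with shPAX8-2. No hairpin library of either line overlapped its controls. The rise was 2.16-fold and 2.18-fold in 786-M1A (log2 fold changes 1.11 and 1.12, SE 0.11 each, adjusted p = 3.7e-07 and 5.6e-07), and 2.28-fold and 1.78-fold in OS-LM1 (1.19 and 0.83, SE 0.10 each, adjusted p = 3.5e-09 and 5.6e-07). Unlike VEGFA, VEGFC showed no detectable difference between the lines in its change (-0.07, SE 0.13, adjusted p = 0.65). In OS-LM1 shPAX8-1 gave more VEGFC than shPAX8-2 did, by 0.36 on the log2 scale (SE 0.10, adjusted p = 0.012), the reverse of VEGFA's order, and in 786-M1A the hairpins differed by -0.02 (SE 0.11, adjusted p = 0.91).

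**Figure D2:**
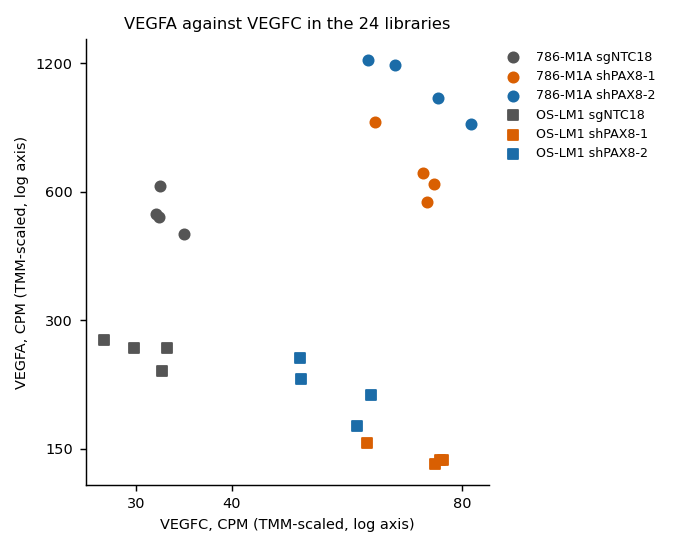
VEGFA against VEGFC in the 24 libraries, both in CPM on log axes (circles, 786-M1A; squares, OS-LM1; colours, constructs). The hairpin libraries of both lines lie to the right of their controls, above 49 CPM of VEGFC against at most 34.7 in sgNTC18, but move up along VEGFA in 786-M1A and down in OS-LM1.

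The 250 bases before the start of VEGFB and VEGFC are shown because VEGFB was called lower and VEGFC called higher in at least 1 comparison of each line, with no call the other way. They are from RefSeq (GRCh38.p14), 5′ to 3′ on each gene's strand, chr11:64234334-64234583 on the plus strand and chr4:176792923-176793172 on the minus strand. Capitals mark the core of the hypoxia response element, searched on both strands as ACGTG and GCGTG.
VEGFB upstream: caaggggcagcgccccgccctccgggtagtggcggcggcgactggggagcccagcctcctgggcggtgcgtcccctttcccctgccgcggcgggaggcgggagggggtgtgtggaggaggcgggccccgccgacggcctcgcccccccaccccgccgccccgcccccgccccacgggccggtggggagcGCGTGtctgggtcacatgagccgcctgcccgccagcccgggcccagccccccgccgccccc
VEGFC upstream: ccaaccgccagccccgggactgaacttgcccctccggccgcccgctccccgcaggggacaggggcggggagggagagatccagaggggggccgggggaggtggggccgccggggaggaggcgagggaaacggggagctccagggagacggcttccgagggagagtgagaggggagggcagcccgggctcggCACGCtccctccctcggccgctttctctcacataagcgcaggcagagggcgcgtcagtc
Each held 1 GCGTG and no ACGTG. FLT1, with no called change, and 1 PGF entry also held 1 GCGTG. The other PGF entry and KDR held none. ANGPTL2, also called higher in each line with no call the other way, held none either, and its window is not shown. No member with an entry held ACGTG. Whether the GCGTG site bears on the changes was not tested. Among all 35116 upstream windows of this length, 32.2% held GCGTG and 18.5% held ACGTG. The core of the PAX paired-domain motif, searched on both strands as GTCACGC, whose reverse complement contains GCGTG, and as GTCATGC, was in 2.20% and 1.43% of all windows and in none of those of the 6 members with an entry (VEGFB, VEGFC, PGF, ANGPTL2, FLT1 and KDR).

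PGF (chromosome 14, 74941830 to 74955764), placental growth factor, a ligand of FLT1, was higher with the hairpins in 786-M1A. It stood there at 4.85, 6.30, 4.21 and 4.35 CPM in sgNTC18, at 10.8, 8.81, 6.62 and 5.08 with shPAX8-1, and at 18.2, 18.7, 13.2 and 14.8 with shPAX8-2. The shPAX8-2 libraries were above all others of the line, while 1 shPAX8-1 library fell within the control range. PGF rose 3.36-fold with shPAX8-2 (log2 fold change 1.75, SE 0.22, adjusted p = 5.6e-06) and 1.62-fold with shPAX8-1 (0.70, SE 0.22, adjusted p = 0.0094). With only replicates 1 and 2 of shPAX8-1 the value was 1.00 (adjusted p = 0.00018), and with only replicates 3 and 4 it was 0.27 (adjusted p = 0.24). PGF was lower with shPAX8-1 than with shPAX8-2 (-1.05, SE 0.21, adjusted p = 0.0012), the order that VEGFA also had. In OS-LM1 the means were 0.851 ± 0.0817, 0.910 ± 0.164 and 1.14 ± 0.359 CPM, the groups overlapped, and neither hairpin passed the threshold (log2 fold changes 0.07 and 0.42, SE 0.29 and 0.28, adjusted p = 0.85 and 0.19). With a GC trend removed the shPAX8-2 value was 0.64 (adjusted p = 0.046). The change differed between the lines by -0.95 (SE 0.29, adjusted p = 0.0061), and by -0.77 (adjusted p = 0.097) once all libraries were reduced to the same depth. The gap between the hairpins differed between the lines by 0.72 (SE 0.33, adjusted p = 0.11), by 0.40 with only replicates 1 and 2 of 786-M1A shPAX8-1 (adjusted p = 0.43) and by 1.16 with only replicates 3 and 4 (adjusted p = 0.0047).

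The makeup of the VEGF ligand transcripts differed between the constructs in both lines. VEGFA made up a median of 75.9% of the summed TPM of the 4 ligands in 786-M1A sgNTC18, 81.7% with shPAX8-1 and 83.5% with shPAX8-2. In OS-LM1 it made up 73.2% in sgNTC18, 54.1% with shPAX8-1 and 66.9% with shPAX8-2. Over the same groups of OS-LM1 the VEGFC share went from 11.6% (range 10.2 to 13.1) to 37.1% (30.1 to 38.2) and 22.9% (18.6 to 28.0), with no overlap between any 2 groups. In 786-M1A it went from 6.11% (5.21 to 6.85) to 12.2% (7.82 to 13.1) with shPAX8-1, with no overlap, and to 7.09% (5.65 to 10.2) with shPAX8-2, which overlapped both. The VEGFB share went down in both lines, from 17.5% to 6.0% and 7.09% in 786-M1A and from 14.8% to 8.89% and 9.44% in OS-LM1. The summed ligand TPM had a median of 479 in 786-M1A sgNTC18, 488 with shPAX8-1 and 808 with shPAX8-2, and of 227, 167 and 200 in OS-LM1. These shares were not tested.

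**Figure D3:**
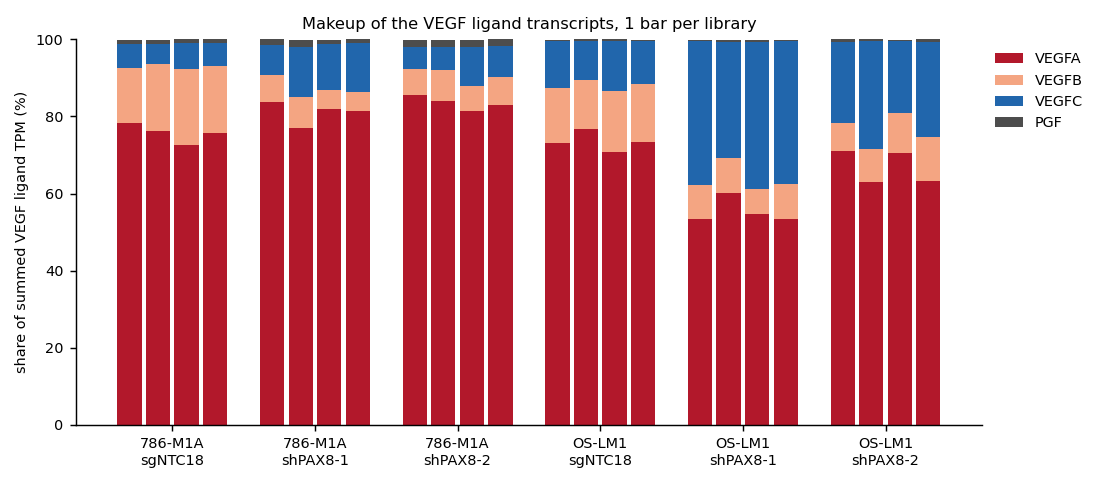
Share of VEGFA, VEGFB, VEGFC and PGF in their summed TPM, in percent, 1 stacked bar per library, 4 libraries per group. The VEGFC share of OS-LM1 is 10.2 to 13.1% in sgNTC18, 30.1 to 38.2% with shPAX8-1 and 18.6 to 28.0% with shPAX8-2.

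ANGPT1 (chromosome 8, 107249482 to 107497918), the TEK agonist, was at 0 counts in all 12 libraries of 786-M1A and in the 4 sgNTC18 libraries of OS-LM1. It was above 0 in all 8 hairpin libraries of OS-LM1, at 1.51, 1.69, 2.45 and 1.10 CPM with shPAX8-1 and 0.420, 0.776, 0.438 and 0.480 with shPAX8-2. These are 153 and 55 counts over the groups. The 2 hairpins did not overlap. Against a floor of 3 counts over the control group, the level was at least 78.7-fold higher with shPAX8-1 and at least 21.8-fold higher with shPAX8-2. Between the hairpins ANGPT1 differed by a log2 fold change of 1.67, shPAX8-1 being the higher (SE 0.36, adjusted p = 0.0023). It passed the filter on low counts only through the hairpin libraries. With no filter beyond 1 count it also entered the fit through them alone, so no p is given for the rise. Even in the hairpin libraries its level per length was low, at 0.698 ± 0.258 and 0.210 ± 0.0668 TPM. Whether a few cells of a culture or all of them carried these transcripts cannot be told apart in bulk RNA, here or for the other genes.

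ANGPT2 (chromosome 8, 6499632 to 6563245) had group means between 0.444 and 0.972 CPM. It passed no comparison: its log2 fold changes were -0.35 (SE 0.33) and 0.38 (SE 0.32) in 786-M1A and -0.18 (SE 0.44) and 0.16 (SE 0.43) in OS-LM1, with adjusted p between 0.31 and 0.75. Its expected count was fractional in all 24 libraries, so RSEM divided some of its reads with other genes. The same limit holds for FLT1 and KDR, with fractional counts in 21 and 15 libraries. With a GC trend removed, the 786-M1A value for shPAX8-1 was -0.84 (adjusted p = 0.041).

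ANGPTL2 (chromosome 9, 127087348 to 127122635), a secreted pro-inflammatory and angiogenic factor, rose in all 4 comparisons. In 786-M1A it stood at 2.26, 1.77, 2.52 and 2.94 CPM in sgNTC18, at 6.01, 4.85, 5.18 and 5.36 with shPAX8-1, and at 12.8, 9.39, 9.12 and 11.8 with shPAX8-2. The 3 groups did not overlap. The rise was 2.27-fold (log2 fold change 1.18, SE 0.18, adjusted p = 2.7e-05) and 4.57-fold (2.19, SE 0.18, adjusted p = 8.0e-08). In OS-LM1 it stood at 0.169, 0.264, 0.0835 and 0.121 CPM in sgNTC18, at 1.02, 1.06, 1.12 and 1.52 with shPAX8-1, and at 0.560, 0.657, 0.918 and 0.961 with shPAX8-2. Again no 2 groups overlapped, and like ANGPT1 it passed the filter there through the hairpin libraries. The rise was 7.16-fold (2.84, SE 0.38) and 4.93-fold (2.30, SE 0.38), from 22 counts over the control group, and no p of the filtered test is given for it. In the fit with no filter beyond 1 count, which ANGPTL2 enters through its controls as well, the log2 fold changes were 2.85 and 2.27 (adjusted p = 2.3e-07 and 1.5e-05). The hairpins differed in 786-M1A, where shPAX8-1 gave the lower level (-1.01, SE 0.17, adjusted p = 0.00034), and not detectably in OS-LM1 (0.54, SE 0.32, adjusted p = 0.23). The difference between these 2 gaps was 1.56 (SE 0.30, adjusted p = 0.00044).

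The receptors were barely transcribed. FLT1 (chromosome 13, 28300346 to 28495128) had group means of 0.439 CPM or below. In 786-M1A it was under the filter and was not tested, and in OS-LM1 its log2 fold changes were -0.68 (SE 0.65, adjusted p = 0.36) and 0.03 (SE 0.58, adjusted p = 0.96). The transcript length that RSEM averaged over its isoforms was 2968 bases in 13 of the 24 libraries and reached 7123 in 1, so its few reads were assigned mainly to short isoforms. KDR (chromosome 4, 55078481 to 55125595) stood at 0.452, 0.774, 0.453 and 0.659 CPM in 786-M1A sgNTC18, at 0.837, 0.801, 0.963 and 1.11 with shPAX8-1, and at 0.626, 0.324, 0.746 and 0.400 with shPAX8-2. The shPAX8-1 libraries were above all controls, but its log2 fold change of 0.70 (SE 0.31) gave an adjusted p of 0.057, and that of shPAX8-2 was -0.14 (SE 0.35, adjusted p = 0.74). Without sgNTC18 replicate 2 the shPAX8-1 value was 0.84 (adjusted p = 0.042). In OS-LM1, KDR stood at 0.113, 0.205, 0.111 and 0 CPM in sgNTC18, at 0.0803 in 1 shPAX8-1 library and 0 in the other 3, and between 0.0597 and 0.104 with shPAX8-2. It had 14.8, 2.0 and 9.1 counts over the sgNTC18, shPAX8-1 and shPAX8-2 groups and was not tested.

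**Figure D4:**
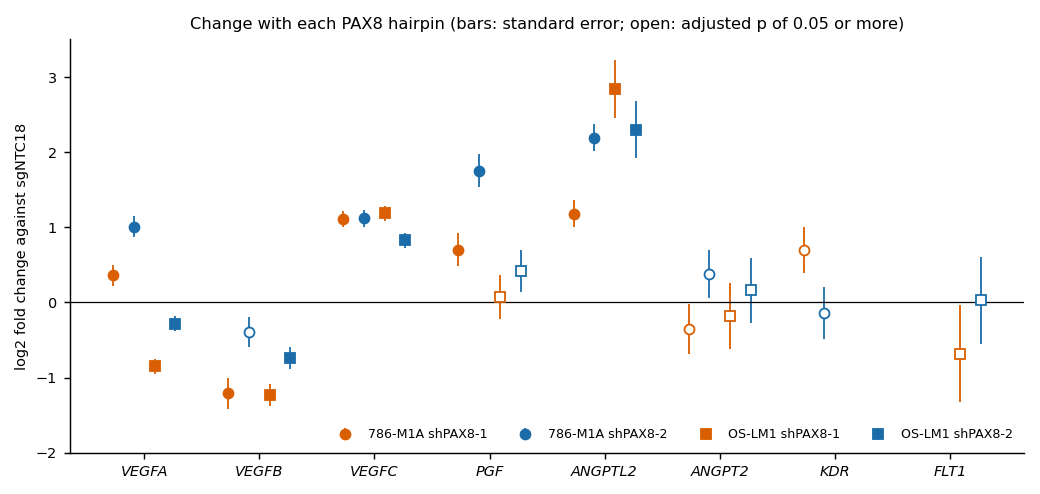
Log2 fold change of 8 genes with each hairpin against sgNTC18 (circles, 786-M1A; squares, OS-LM1; bars, SE; open symbols, adjusted p of 0.05 or more). VEGFC and ANGPTL2 lie above 0 in all 4 comparisons, VEGFB lies below 0 in all 4, and VEGFA lies above 0 in 786-M1A and below 0 in OS-LM1. ANGPT1 is left out because its controls are at 0, and FLT1 in 786-M1A and KDR in OS-LM1 were not tested. ANGPTL2 in OS-LM1 passed the filter on low counts through its hairpin libraries.

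These calls stand against a transcriptome in which most genes were called. With shPAX8-1 in 786-M1A, 5 of the 7 members tested were called, against 70.6% of 14452 genes. With shPAX8-2 it was 4 of 7, against 62.5%. In OS-LM1, 5 of 8 members were called with each hairpin, against 71.4% and 68.4% of 15049 genes. Between the hairpins it was 4 of 7 members in 786-M1A, against 47.1%, and 4 of 8 in OS-LM1, against 29.1%. For the line difference in the change against sgNTC18, 3 of 9 members were called (VEGFA, PGF and ANGPTL2) against 58.7% of 15665 genes, and for that in the gap between hairpins, 2 of 9 (VEGFC and ANGPTL2) against 27.2%. With so few members these shares are not a result about them, and ANGPT1 and ANGPTL2 entered the OS-LM1 test through their rise.

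The lines also differed before PAX8 depletion. In sgNTC18 cells, 5 of 9 members were called, against 63.0% of genes, and all 5 were lower in OS-LM1, against 31.0% of genes called lower. The log2 differences of OS-LM1 from 786-M1A were -1.09 for VEGFA (SE 0.13, adjusted p = 3.7e-08), -1.29 for VEGFB (SE 0.19), -2.52 for PGF (SE 0.23), -3.87 for ANGPTL2 (SE 0.27) and -2.36 for KDR (SE 0.50). KDR and ANGPTL2 had only 14.8 and 22.0 counts over the OS-LM1 sgNTC18 group. KDR passed the filter through its 786-M1A libraries, so no p is given for it. ANGPT1, at 0 in every sgNTC18 library, could not be called here. VEGFC did not differ detectably (-0.10, SE 0.11, adjusted p = 0.44). In the hairpin libraries, 7 of 9 members were called, against 83.1% of genes, and 6 of them, KDR included, were lower in OS-LM1, against 41.5%. ANGPT1, the 1 called higher, passed the filter only through the OS-LM1 hairpin libraries. The log2 difference was -2.30 for VEGFA (SE 0.094), which stood at 0.203 of the 786-M1A level, and -3.46 for PGF (SE 0.17), while ANGPT1 was at least 44.6-fold higher in OS-LM1. The smallest called difference was that of VEGFC, at -0.17 (SE 0.075, adjusted p = 0.038). It missed the threshold in 7 of the 16 fits that left out 1 hairpin library, with values of -0.20 to -0.13 over all 16. Those 7 left out OS-LM1 shPAX8-2 replicate 1 or 3, OS-LM1 shPAX8-1 replicate 2, 786-M1A shPAX8-2 replicate 3 or 4, or 786-M1A shPAX8-1 replicate 2 or 4.

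Transcripts of the HIF genes EPAS1 and HIF1A were higher with the hairpins in both lines. The paper gives HIF2A, and not HIF1A, the dominant part in ccRCC, and these libraries do not measure HIF protein. EPAS1, which encodes HIF2A, rose by log2 fold changes of 0.64 (SE 0.13) and 1.41 (SE 0.13) in 786-M1A and 0.51 (SE 0.086) and 0.80 (SE 0.086) in OS-LM1, with adjusted p of 0.00037 or below. HIF1A rose by 1.15, 0.89, 2.18 and 1.89 over the same comparisons (SE 0.12 to 0.15), from a mean of 8.47 ± 0.562 CPM in 786-M1A sgNTC18 and 35.8 ± 3.13 in OS-LM1 sgNTC18. VHL transcripts rose by 0.71, 0.59, 1.36 and 1.00 (SE 0.094 to 0.11). EPAS1 shared VEGFA's order of the hairpins, lower with shPAX8-1 in both lines (-0.77, SE 0.13, adjusted p = 0.00037 in 786-M1A; -0.29, SE 0.086, adjusted p = 0.015 in OS-LM1), but not VEGFA's opposite directions in the lines.

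**Figure D5:**
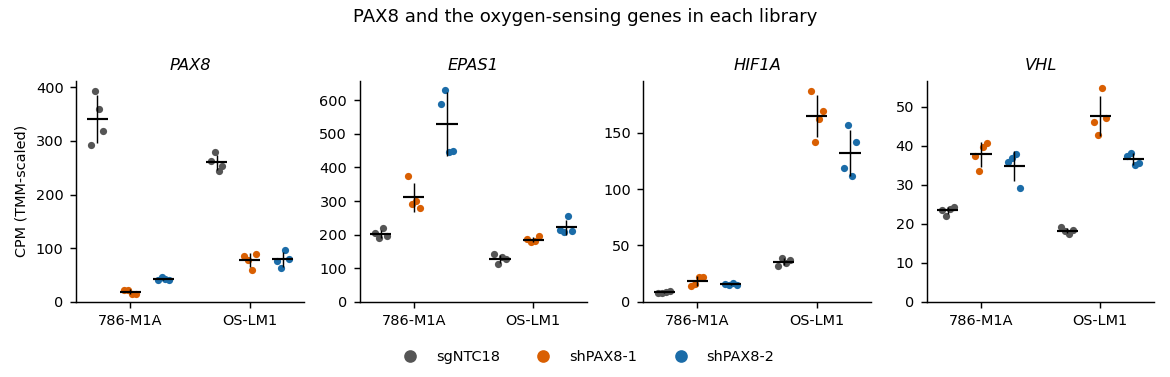
PAX8, EPAS1, HIF1A and VHL in every library, in CPM on linear axes that start at 0 (points, libraries; horizontal bars, means of 4; vertical bars, SD). PAX8 falls to 18.7 and 42.4 CPM in 786-M1A and to 78.2 and 79.2 in OS-LM1, and the other 3 genes are higher with both hairpins in both lines.

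The rest of the pathway is described from lists. Against sgNTC18, the shares of all genes called higher and lower were 36.1% and 34.5% with shPAX8-1 and 31.5% and 30.9% with shPAX8-2 in 786-M1A, and 35.6% and 35.8%, and 34.3% and 34.1%, in OS-LM1. Of 10 other VEGF and angiopoietin receptors and co-receptors, 9 were tested in 786-M1A, where 7 rose and 1 fell with shPAX8-1 and 6 rose and none fell with shPAX8-2 (medians 0.82 and 0.72 on the log2 scale). In OS-LM1, 8 were tested, where 1 rose and 3 fell, and 2 rose and 2 fell (medians -0.22 and -0.03). The medians over all genes tested lay between -0.014 and 0.034. For the line difference, 1 of 9 was called higher and 7 lower in OS-LM1, against 29.9% and 28.8% of all genes. The VEGF co-receptor NRP2 rose with shPAX8-1 in 786-M1A, from 232 ± 12.5 to 643 ± 16.6 CPM. With shPAX8-2 it was also above its controls there, at 298 ± 4.9 CPM. Its partner NRP1 fell with shPAX8-2 in OS-LM1, from 465 ± 17.1 to 282 ± 15.1 CPM. With shPAX8-1, NRP1 was also below its controls there, at 312 ± 24.7 CPM. TIE1, the orphan partner of TEK, rose in 786-M1A from 0.0848 ± 0.0762 CPM to 1.60 ± 0.463 and 1.49 ± 0.358. In OS-LM1 it stood at 0.129 ± 0.0123 CPM in sgNTC18 and at 0.0322 ± 0.0383 and 0.0306 ± 0.0353 with the hairpins. TIE1 passed the filter on low counts only through the 786-M1A hairpin libraries, so no p is given for it, and its place in the counts above has the same limit.

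Among the 11 other VEGF and angiopoietin-like ligands, ANGPTL4, a HIF and lipid-responsive factor that inhibits lipoprotein lipase, moved most, and in the direction opposite to VEGFA in each line. In 786-M1A it fell from 13.7 ± 1.64 CPM to 1.16 ± 0.192 with shPAX8-1 and 7.93 ± 1.44 with shPAX8-2 (log2 fold changes -3.53 and -0.77, adjusted p = 6.6e-10 and 0.00056). In OS-LM1 it rose from 1.68 ± 0.274 CPM to 23.1 ± 3.03 and 42.8 ± 10.7 (3.76 and 4.68, adjusted p = 9.4e-13 and 5.9e-14). Like VEGFA it was lower with shPAX8-1 than with shPAX8-2 in both lines (-2.76, SE 0.19, and -0.92, SE 0.15, adjusted p = 2.1e-07 and 0.00012). In all, 2 of these ligands were tested in 786-M1A, where 1 fell with each hairpin, and 3 in OS-LM1, where 2 rose with each hairpin and 1 fell with shPAX8-2.

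The other secreted factors moved both ways. Of 22 pro-angiogenic factors, 18 were tested in 786-M1A, where 9 rose and 5 fell with shPAX8-1 and 11 rose and 6 fell with shPAX8-2. In OS-LM1, 20 were tested, where 11 rose and 6 fell, and 12 rose and 4 fell. The matricellular factor CTGF rose in OS-LM1 from a range of 43.9 to 59.7 CPM in sgNTC18 to 840 to 1090 with shPAX8-1 and 2750 to 3070 with shPAX8-2, and the chemokine CXCL8 from 28.0 ± 6.52 to 888 ± 212 and 780 ± 123. The same groups of 786-M1A had CTGF at 37.3 ± 2.56, 224 ± 38.1 and 149 ± 13.6 CPM, and CXCL8 at 9.46 ± 1.46, 48.6 ± 17.7 and 6.12 ± 0.815. Of 15 anti-angiogenic factors, 14 were tested in 786-M1A, with 6 higher and 4 lower, then 6 higher and 3 lower, and 13 in OS-LM1, with 6 each way, then 5 each way. SPARC and SEMA3B rose in 786-M1A with both hairpins, and ISM1 fell in OS-LM1 with both, from 21.5 ± 1.23 to 2.84 ± 0.363 and 3.60 ± 0.503 CPM. The levels lay the same way in the other line: in OS-LM1, SPARC stood at 2260 ± 156 CPM in sgNTC18 and 3630 ± 181 and 3230 ± 227 with the hairpins, and SEMA3B at 8.42 ± 1.41, 24.9 ± 3.30 and 22.8 ± 6.33. In 786-M1A, ISM1 stood at 17.5 ± 0.816, 4.43 ± 0.664 and 5.40 ± 0.582 CPM.

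Known HIF target genes other than the members did not move as a block. Of 20, 19 were tested in 786-M1A, where 10 rose and 8 fell with shPAX8-1 and 11 rose and 4 fell with shPAX8-2. In OS-LM1 all 20 were tested, where 9 rose and 10 fell, and 8 rose and 10 fell. For the line difference, 3 of 20 were called higher and 10 lower in OS-LM1. LOX, the lysyl oxidase of collagen, rose in 786-M1A from 13.5 ± 0.729 CPM to 137 ± 9.57 and 146 ± 14.3. Its OS-LM1 levels lay the same way, at 33.5 ± 3.84 CPM in sgNTC18 and 110 ± 4.87 and 120 ± 14.0 with the hairpins. CA9 rose in OS-LM1 from 6.40 ± 0.421 CPM to 42.2 ± 4.07 and 29.5 ± 4.47, and the glycolytic gene LDHA fell with shPAX8-2 in both lines. Its levels with shPAX8-1 were also low, at 609 ± 91.3 CPM against 1560 ± 106 in 786-M1A and 1290 ± 58.5 against 2790 ± 284 in OS-LM1. Of 10 HIF subunits and oxygen sensors, 4 rose and 3 fell, then 6 rose and 2 fell, in 786-M1A, and of the 9 tested in OS-LM1, 5 rose and 3 fell, then 5 rose and 2 fell. EGLN3, the most HIF-responsive of the prolyl hydroxylases, fell in OS-LM1 from 156 ± 7.83 CPM to 78.4 ± 7.35 and 74.8 ± 4.77. In 786-M1A the hairpins parted, with EGLN3 at 147 ± 9.17 CPM in sgNTC18, 86.8 ± 9.52 with shPAX8-1 and 186 ± 4.23 with shPAX8-2.

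Of the endothelial markers, 3 were tested in each line, and 1 rose and 1 fell, 2 rose, 1 rose and 1 fell, and 1 rose in the 4 comparisons in the order above. Of the renal and ccRCC line markers, 8 were tested in 786-M1A, where 1 rose and 6 fell, then 1 rose and 5 fell, and 9 in OS-LM1, where 3 rose and 4 fell with each hairpin. CDH6, a kidney cadherin, fell by 2.80 to 2.94 on the log2 scale in all 4. The only leukocyte marker tested was CD68, which rose in 3 of the 4 comparisons and had a log2 fold change of 0.30 with shPAX8-1 in 786-M1A. The part of these markers in the results above was not tested.

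The genes whose pattern was most like each member's were found by Pearson's r of log2 CPM over the 24 libraries, centred within each line, among 9363 genes. The libraries share lines and constructs, so these values describe the pattern only. For VEGFA they were GRAMD4 (0.953), BCORL1 (0.946), PLOD1 (0.921), ING5 (0.919) and IGSF8 (0.912). For VEGFC they were FAM149B1 (0.979) and CPA4 (0.978), for VEGFB MAN2B1 (0.976) and ARAF (0.972), for PGF RGP1 and DCAF5 (0.932 each), and for ANGPTL2 ERV3-1 (0.948) and SPRED3 (0.943). ANGPT2 and KDR had no gene above 0.679. Among the members, VEGFC went with ANGPTL2 (0.876) and against VEGFB (-0.781), and VEGFA went with PGF (0.728). For VEGFA and VEGFC the value was -0.073, which pools lines with opposite patterns and does not show that the genes were unrelated. With the hairpins, mean VEGFA was lower and mean VEGFC higher in OS-LM1, while both were higher in the other line.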

How the data were processed

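The authors aligned the reads to hg38 (GRCh38) and estimated gene expression with RSEM and Bowtie2, per the labels; the RSEM version and annotation release are not given in the sources used here. The labels name a stranded poly(A) kit, the study's methods another kit. The deposited tables hold, per library, expected counts, TPM as the authors computed it and an averaged transcript length; the deposited effective lengths equal these lengths. The length column, another quantity, was used for isoform lengths only.

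Expected counts were rounded to whole numbers. Genes passing filterByExpr (minimum count 10) were tested with edgeR 4.0.16 in R 4.3.3 (TMM scaling, robust quasi-likelihood, Benjamini-Hochberg adjustment over all genes tested, threshold 0.05), within each line over 12 libraries for comparisons of constructs and over all 24 for comparisons of lines. SE is the log2 fold change divided by the square root of F. Log2 CPM used a prior count of 2. The procedure was tested on simulated data. Alternatives were DESeq2 1.42.0, its size factors, no filter beyond 1 count, a replicate block, 1 joint fit, a GC trend (values for 87.5% of genes), thinning, subsets of 786-M1A shPAX8-1, and leaving out each library. The smallest chi-square per gene between replicates was 3.73, so no library was a duplicate. The largest was 89.45, between replicates 3 and 4 of OS-LM1 shPAX8-2.

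Gene coordinates, promoters and the PAX8 sites are from RefSeq GRCh38.p14, hg38 and GENCODE; 6 of 9 members had a promoter entry, and VEGFA, ANGPT1 and ANGPT2 had none. Hairpin sequences are the study's. Members and lists were chosen with earlier results of these data known; genes other than members were named as the 2 called genes with the largest log2 fold change each way in a list and comparison, with PAX8, EPAS1, HIF1A, VHL and the most similar genes by correlation.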

Additional observations from a re-analysis of the deposited data

Results flagged for a closer look

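Single libraries stood apart within their group of 4 for 6 of the 50 member and group combinations with any count, where about 1 in 20 is flagged by chance. VEGFB was at 10.7 CPM in OS-LM1 shPAX8-1 replicate 3, below the others. VEGFC was at 34.7 CPM in 786-M1A sgNTC18 replicate 3, above the others, and at 60.0 CPM in OS-LM1 shPAX8-1 replicate 2, below them. FLT1 was at 0.571 CPM in 786-M1A sgNTC18 replicate 4, above its group, and at 0.200 CPM in 786-M1A shPAX8-2 replicate 4, below it. KDR was at 0.0803 CPM in OS-LM1 shPAX8-1 replicate 3, the only library of that group with a count.

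The change against sgNTC18 differed between the lines for 3 members, with the OS-LM1 value taken less the 786-M1A value. For VEGFA it was -1.22 (SE 0.16, adjusted p = 2.4e-07), with a rise in 786-M1A and a fall in OS-LM1. It was -0.95 for PGF (SE 0.29, adjusted p = 0.0061), from the rise in 786-M1A. It was 0.93 for ANGPTL2 (SE 0.32, adjusted p = 0.017), and 0.71 without OS-LM1 sgNTC18 replicate 3 (adjusted p = 0.071) or 0.82 without replicate 4 of that group (adjusted p = 0.050). ANGPTL2 entered the OS-LM1 test through its hairpin libraries. With no filter beyond 1 count the difference was 0.94 (adjusted p = 0.024), and at equal depth it was 0.82 (adjusted p = 0.20). PAX8 fell less in OS-LM1 than in 786-M1A, and the part of that in these differences was not tested.

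The gap between the 2 hairpins differed between the lines for ANGPTL2 by 1.56 (SE 0.30, adjusted p = 0.00044) and for VEGFC by 0.40 (SE 0.15, adjusted p = 0.046). The VEGFC value missed the threshold in 10 of the 16 fits that left out 1 library, with values of 0.34 to 0.48 over all 16. Those 10 left out OS-LM1 shPAX8-2 replicate 1 or 3, OS-LM1 shPAX8-1 replicate 1, 3 or 4, 786-M1A shPAX8-2 replicate 3 or 4, or 786-M1A shPAX8-1 replicate 1, 3 or 4. With a GC trend removed it was 0.17 (adjusted p = 0.51). It was 0.46 with only replicates 1 and 2 of 786-M1A shPAX8-1 (adjusted p = 0.058) and 0.36 with only replicates 3 and 4 (adjusted p = 0.070). In the latter the difference between the lines in this gap passed for PGF (1.16, adjusted p = 0.0047) and VEGFB (0.82, adjusted p = 0.012).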

How the results depend on the processing

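No member reversed its direction past the threshold under any alternative. DESeq2 moved 0 of 77 member results across the threshold, its size factors 1, no filter beyond 1 count 3, a joint fit 2 of 45, removal of a GC trend 8 of 77, and thinning 3 of 67. Members called for the line difference in the gap between hairpins went from 2 to 1 with no filter, a GC trend removed, thinning, or only replicates 1 and 2 of 786-M1A shPAX8-1, and ran from 1 to 2 when single libraries were left out. Members called for the line difference in the change against sgNTC18 went from 3 to 1 with thinning. With only 786-M1A shPAX8-1 replicates 3 and 4, members called with shPAX8-1 in 786-M1A went from 5 to 3, and genes called for the gap between hairpins across lines from 4264 to 6817. With only replicates 1 and 2, the latter was 2579, and genes called between the hairpins in 786-M1A went from 6803 to 3869. The cause was not tested.

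The replicate numbers did not pair the libraries across all groups: the deviations of same-numbered libraries correlated by -0.319 to 0.271. In the 1 group pair where all were positive, 786-M1A shPAX8-1 and shPAX8-2, they ran from 0.037 to 0.271 (mean 0.17, against -0.057 for different numbers). Replicates 1 and 2 of these 2 hairpin groups correlated with each other by 0.064 to 0.306, and replicates 3 and 4 by 0.025 to 0.312. Between replicates 1 and 2 of one group and 3 and 4 of the other, the values ran from -0.365 to 0.024. These 2 groups thus shared a split, whose cause was not tested. With a replicate block, no member call changed, 5 members were again called with shPAX8-1 in 786-M1A, and genes called there went from 10199 to 10283. Depth limits FLT1, KDR, ANGPT2 and the controls of ANGPT1 and ANGPTL2 in OS-LM1 most.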
